A study of Mus musculus with 9 samples.

Results

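Slpi and 6 other protease inhibitor genes (Cst3, Cstb, Serpinb2, Serpinb6a, Serping1 and Spint1) were followed in macrophages of mouse visceral fat, to ask whether the higher Slpi of mice lacking Nucb2 came with a wider change of inhibitors. The 7 genes were taken by symbol, and all 7 were among the 14905 genes of the deposited table. Slpi had been picked for its difference between knockout and wild type in these same libraries, and the other 6 with results of that comparison in view, so their differences are described here without a test. The libraries were 5 of genotype Nucb2-/- (KO) and 4 of wild-type genotype (WT). Every library came from C57BL/6 mice and from visceral adipose tissue cells sorted by flow cytometry as F480+CD11b+. The name of the deposited table carries the abbreviation HFD for all 9 libraries, which the labels do not spell out. Age, sex and diet of the mice are not given in the sample labels, which also do not say that each library came from a mouse of its own, so a p-value here speaks of variation among libraries, which can be partly technical.

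Protease inhibitors hold enzymes in check by occupying the active site. Slpi, the secretory leukocyte peptidase inhibitor, is a small secreted protein with WAP domains that blocks neutrophil elastase, cathepsin G and the proteases of mast cells, and in macrophages it is known to dampen the response to lipopolysaccharide. Cystatins block the cysteine cathepsins that break down protein in lysosomes, either from outside the cell (Cst3, cystatin C) or in the cytosol (Cstb, cystatin B). Serpins trap a serine protease by a change of shape that cannot be undone: Serpinb2 acts on the plasminogen activator urokinase, Serpinb6a on cathepsin G, and Serping1, the C1 inhibitor, on the starting proteases of complement. Spint1 carries Kunitz domains and acts on membrane proteases of epithelium that activate hepatocyte growth factor.

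The window of 250 bases before the start site is shown for Slpi and Serpinb2, the members with the largest differences between the groups among those well above the floor, and for Spint1, which was almost silent. The sequences are from RefSeq (GRCm38.p6), which had an entry for 5 of the 7 genes. Capitals mark matches on either strand to 6 motifs. These were the TATA box TATAAA, the CCAAT box, the Sp1-like motif GGGCGG, the AP-1 motif TGANTCA, the PU.1 core motif GAGGAA and the C/EBP-like motif TTGCNNAA.
Slpi, chr2:164356508-164356757, minus strand: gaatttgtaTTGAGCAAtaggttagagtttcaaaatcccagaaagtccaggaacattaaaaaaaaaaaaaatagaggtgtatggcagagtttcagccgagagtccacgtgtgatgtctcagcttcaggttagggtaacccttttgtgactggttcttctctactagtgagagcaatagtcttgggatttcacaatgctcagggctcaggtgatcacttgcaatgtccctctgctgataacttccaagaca
Serpinb2, chr1:107511173-107511422, plus strand: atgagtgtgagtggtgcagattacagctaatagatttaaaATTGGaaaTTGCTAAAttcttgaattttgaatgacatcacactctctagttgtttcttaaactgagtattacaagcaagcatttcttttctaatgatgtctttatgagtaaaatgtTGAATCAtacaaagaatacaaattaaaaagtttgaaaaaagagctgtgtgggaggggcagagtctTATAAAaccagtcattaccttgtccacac
Spint1, chr2:119237110-119237359, plus strand: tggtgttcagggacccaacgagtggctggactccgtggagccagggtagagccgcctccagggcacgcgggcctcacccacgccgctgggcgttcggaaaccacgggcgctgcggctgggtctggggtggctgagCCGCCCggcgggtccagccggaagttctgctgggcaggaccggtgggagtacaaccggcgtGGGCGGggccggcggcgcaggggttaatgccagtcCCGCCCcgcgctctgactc
The Slpi window held 1 match, TTGAGCAA at position -241 from the start, a kind of match found in 9.56% of all 32851 windows of this length. Serpinb2 had TATAAA at -29 (in 12.4% of windows), TGAATCA at -94 (AP-1 motif, in 6.75%), ATTGG at -210 (CCAAT on the other strand, in 33.8%) and TTGCTAAA at -202. Spint1 had 3 matches to GGGCGG (in 32.7% of windows) at -115, -54 and -19. CpG pairs numbered 2 in the Slpi window, 0 in that of Serpinb2 and 26 in that of Spint1, where the median window had 6. Serpinb2 has another RefSeq start downstream, whose window overlaps the printed one and held 3 CpG pairs, TATAAA at -116, TGAATCA at -181, TTCAGCAA at -19 and no match to CCAAT. These are matches of letters and do not show binding. The windows end at the RefSeq start, and for Slpi the GENCODE gene reaches further upstream, so that its window lies inside that gene though in none of its exons.

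Values are normalized read counts on a linear scale with a floor of 1, and all levels below are on this scale unless another is named, with ± giving the SD over 5 KO or 4 WT libraries. Depth, inferred from the steps between low values, was 74937721 to 85200103 reads in 6 deeper libraries (the first 4 of KO and the first 2 of WT by number). It was 51148957 to 55004978 reads in 3 shallower ones, namely KO replicate 5 with WT replicates 3 and 4. In every difference given below within the shallower libraries, KO replicate 5 thus stands alone for KO, without a spread. Nucb2 checked the labels: it lay between 1165 and 1752 in KO and between 3311 and 5233 in WT (limma log2 difference -1.52, adjusted p = 0.000539; exact two-sided permutation test p = 0.0159, the smallest possible here). Markers of macrophages were high in all libraries, with 8 of 8 listed genes present and a summed level of 1287305 to 1496745 in KO and 1284597 to 1445681 in WT. Lyz2 was the largest part of that sum (749149 to 898308 in KO and 784354 to 882924 in WT). Log2 differences were above 0 in 4 of the 8 and below 0 in 4. In limma 0 passed, and 3 had an unadjusted p under 0.05, as did 9.14% of all genes. These were Fcgr1 (log2 difference -0.50, all KO libraries below all WT libraries), Adgre1 (-0.22) and Itgam (0.18). Markers of other cells were present too: the summed level of 10 fibroblast genes was 297234 to 460546 in KO and 208837 to 346465 in WT. In such bulk samples, fewer cells of a type and less RNA per cell cannot be told apart.

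Slpi was higher in every KO library than in any WT library, about 3-fold on average, but the KO libraries differed widely among themselves. Its normalized counts were 34125, 24078, 34746, 15986 and 37659 in KO replicates 1 to 5, and 11200, 5993, 10050 and 9887 in WT replicates 1 to 4. KO replicate 4 lay closest to WT, and WT replicate 2 was the lowest of all. The mean was 29319 ± 9046 in KO and 9283 ± 2269 in WT, a log2 difference of 1.63 (SE 0.23, 95% interval 1.15 to 2.11, on the log2 scale with a pseudocount of 1). At 6497 to 42296 reads a library, counting error is at most 1.2%, against a spread of 30.9% among KO and 24.4% among WT libraries. The log2 difference was 1.67 within the deeper libraries and 1.92 within the shallower ones, where KO replicate 5, the highest for Slpi, is the only KO library. The gene lies on the minus strand of chromosome 2 from 164354070 to 164389095 (GRCm38, GENCODE M21).

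**Figure D1:**
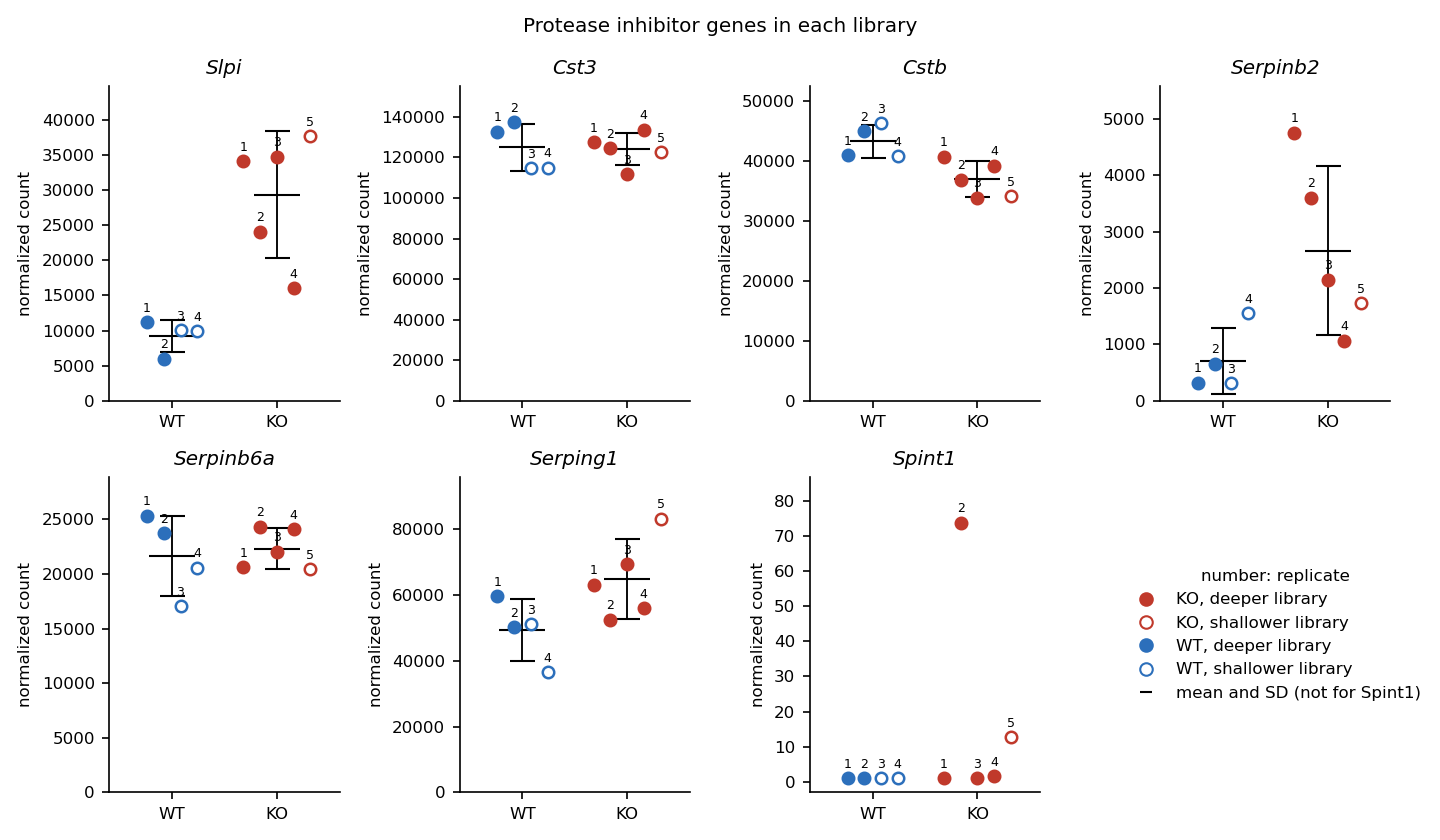
Normalized count of the 7 inhibitor genes in each library, by genotype, each panel with its own linear axis. Points are libraries with their replicate number, filled for the 6 deeper and open for the 3 shallower libraries, and bars give mean and SD except for Spint1. Slpi in KO sits between 15986 and 37659, above all WT libraries, while Cst3 and Serpinb6a overlap.

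Wfdc17, the other WAP gene of high level, had a log2 difference near 0. Wfdc17 counted 17744 ± 1803 in KO libraries against 17168 ± 1030 in those of WT (log2 difference 0.04, 95% interval -0.14 to 0.23; limma adjusted p = 0.906). The count of Slpi divided by that of Wfdc17 in the same library was 2.07, 1.47, 2.11, 0.83 and 1.87 in KO and 0.653, 0.322, 0.622 and 0.589 in WT. Every KO library had more Slpi relative to Wfdc17 than any WT library. Slpi took 3.63% to 7.68% of the summed normalized counts of all 77 inhibitor genes measured in KO, and 1.45% to 2.66% in WT. Wfdc17 and the inhibitor sum varied far less than Slpi. The ratio and the share therefore largely restate the difference for which Slpi had been picked, and add no support to it.

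The cystatins Cst3, the member of highest count, and Cstb were close to equal or slightly lower in KO. Cst3 counted 127528, 124648, 111867, 133643 and 122503 in KO libraries against 132625, 137294, 114796 and 114899 in those of WT. These ranges overlap almost entirely, and the log2 difference was -0.01 (SE 0.07), with a 95% interval of -0.17 to 0.15. Cst3 lies on chromosome 2 from 148871722 to 148875692. Cstb had 40717, 36864, 33877, 39175 and 34085 in KO, and 40972, 44991, 46241 and 40791 in WT. All KO libraries were below all WT libraries, although the highest KO and the lowest WT library differed by less than 1 SD of either group. The log2 difference of Cstb was -0.23 (SE 0.08, 95% interval -0.39 to -0.07), in the opposite direction to Slpi and far smaller. It was -0.19 within the deeper and -0.35 within the shallower libraries. Cstb lies on chromosome 10 from 78425669 to 78427622.

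Serpinb2, the inhibitor of urokinase, had the largest log2 difference among the members well above the floor, and the most uneven values. Its normalized counts were 4749, 3602, 2148, 1068 and 1734 in KO, and 325, 657, 310 and 1552 in WT. WT replicate 4 reached into the KO range, above KO replicate 4, so the groups overlap. The mean was 2660 ± 1492 in KO and 711 ± 583 in WT, and the log2 difference was 2.04 (SE 0.47, 95% interval 1.04 to 3.03). Within the deeper libraries it was 2.43 and within the shallower ones 1.32. The gene lies on chromosome 1 from 107511423 to 107535478 and overlaps Serpinb10 on the same strand. How reads of overlapping genes were counted is not given in the sources used here. Serpinb10 had 257 to 697 normalized counts in KO and 213 to 574 in WT, which overlap.

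Serpinb6a, an inhibitor inside the cell, was level between the groups. It counted 20625, 24346, 22030, 24119 and 20439 in KO libraries against 25326, 23762, 17073 and 20576 in those of WT. The WT range contains the KO range, and the log2 difference was 0.05 (SE 0.11, 95% interval -0.18 to 0.28). The gene lies on chromosome 13 from 33917918 to 34002794, where genes on the other strand overlap it, and it belongs to a family of close copies, so its value is uncertain.

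Serping1, the C1 inhibitor, was the second most abundant member by count and was somewhat higher in KO, with overlapping ranges. Its normalized counts were 63097, 52527, 69323, 56066 and 83144 in KO, and 59590, 50177, 51208 and 36626 in WT. KO replicate 5 was the highest and WT replicate 4 the lowest library. The log2 difference was 0.39 (SE 0.14, 95% interval 0.10 to 0.69). It was 0.13 within the deeper libraries and 0.94 within the shallower ones, which hold both of those libraries, and 0.26 without WT replicate 4. The gene lies on chromosome 2 from 84765387 to 84775444.

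Spint1 was at or near the floor. It was at the floor in all 4 WT libraries and in KO replicates 1 and 3, and its reads in KO replicates 2, 4 and 5 numbered 87, 2 and 10. The log2 difference was 1.67 (SE 1.30), and its 95% interval of -1.09 to 4.43 contains 0. Set against an assumed 3 reads in each WT library, the KO mean was 5.37-fold higher, and 1.22-fold higher without KO replicate 2. These folds allow for counting error in WT only, not for that in KO or for the spread among libraries. The gene lies on chromosome 2 from 119237362 to 119249527.

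Of the 7 members, 1, Slpi, passed an adjusted p of 0.05 in limma, as did 0.309% of all genes, and 2 had groups that did not overlap, as did 3.15% of all genes. Slpi was the 1 member with all KO libraries above WT (1.55% of all genes) and Cstb the 1 with all below (1.6%). Since the members were chosen with this comparison known, nothing is read from those counts. The median log2 difference of the members was 0.39, with 5 of 7 above 0, where the median over all genes was 0.02.

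Per kilobase of transcript, Cst3 stood above all other members. Its normalized count per kilobase was 144200 ± 9290 in KO and 145200 ± 13700 in WT, close to that of the abundant cathepsin gene Ctsb at 154400 ± 8890 and 163800 ± 15800. Cstb followed with 61270 ± 5030 in KO and 71720 ± 4610 in WT. In WT the order went on with Serping1 (27940 ± 5370), Serpinb6a (14210 ± 2400), Slpi (10600 ± 2590) and Serpinb2 (359 ± 294), and the ranges of Serpinb6a and Slpi overlapped. In KO, Slpi (33470 ± 10300) stood above Serpinb6a (14630 ± 1220) in every library, and its range overlapped that of Serping1 (36670 ± 6850). Lengths were the median over coding GENCODE transcripts that have a RefSeq counterpart. With the length of all exons joined, Slpi stood above Serpinb6a in WT as well, at a mean of 7867 against 4009 per kilobase.

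**Figure D2:**
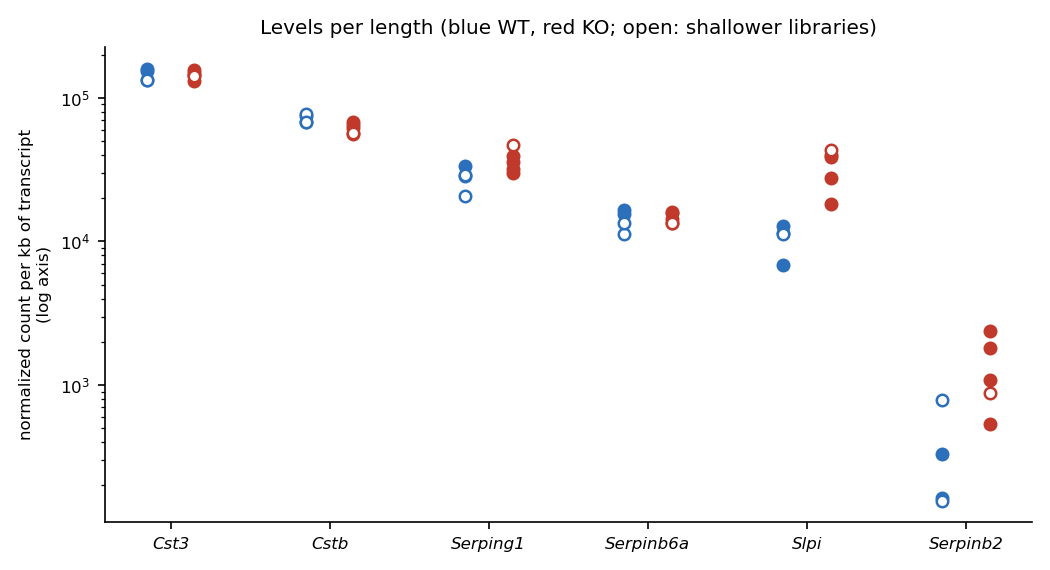
Normalized count per kilobase of transcript for 6 members on a log axis, with WT libraries in blue and KO libraries in red, open points being the shallower libraries. Slpi overlaps the range of Serpinb6a in WT and that of Serping1 in KO, while Cst3 stays near 145200 per kilobase in WT and 144200 in KO.

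The genes whose profile over the 9 libraries was most like that of a member were searched among 7292 genes of at least median level, predicted symbols left out. Likeness was the root-mean-square difference of log2 profiles, each centred on its own mean. Among the closest to Slpi were Prg4 (lubricin) at 0.37, Vwf (von Willebrand factor) at 0.41, Selp (P-selectin) at 0.41 and Pira7 (a paired immunoglobulin-like receptor, one of several near-identical copies) at 0.42, against a spread of 0.91 for Slpi about its own mean. No inhibitor was among the 5 closest, and the difference between the Slpi profile and that of Serpinb2 was 0.90, of Serping1 0.72 and of Cst3 0.95. Prg4 counted 2449, 2176, 1475, 1192 and 2873 in KO libraries against 610, 490, 925 and 998 in those of WT. As with Slpi, KO replicate 5 was the highest library, KO replicate 4 the lowest of its group and WT replicate 2 the lowest of all. Other ranks differed: KO replicate 3 was above KO replicates 1 and 2 for Slpi but below both for Prg4. WT replicate 1 was the highest of WT for Slpi but below WT replicates 3 and 4 for Prg4. The count of Slpi divided by that of Prg4 ran from 11.1 to 23.6 in KO and from 9.9 to 18.4 in WT. The genes were ranked with the difference between the groups included, and the likeness carries no test.

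Serpinb2 was closest to Selp (0.71) and to Arl6, a small GTPase of cilia (0.75), against its own spread of 1.32, so no gene followed it closely. Serping1 was closest to Dcn, the fibroblast proteoglycan decorin, at 0.07 against a spread of 0.31, and next to the nucleolar protein gene Nop58 at 0.09. Dcn counted 239400, 201024, 268755, 223325 and 315832 in KO libraries against 240477, 167893, 188061 and 136158 in those of WT. The count of Serping1 divided by that of Dcn stayed between 0.251 and 0.264 in KO and between 0.248 and 0.299 in WT, although Serping1 itself ran from 36626 to 83144. Among the nearest genes were Aprt for Cst3 (0.06), Brk1 and Atp5e for Cstb (0.05 and 0.06), and Cd9 and Senp2 for Serpinb6a (0.07 and 0.08). These last 3 members vary little, so that many genes of even level lie close to them. For Spint1 the nearest were Ddx28 and Nrcam at 1.31 and 1.33, no close match.

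**Figure D3:**
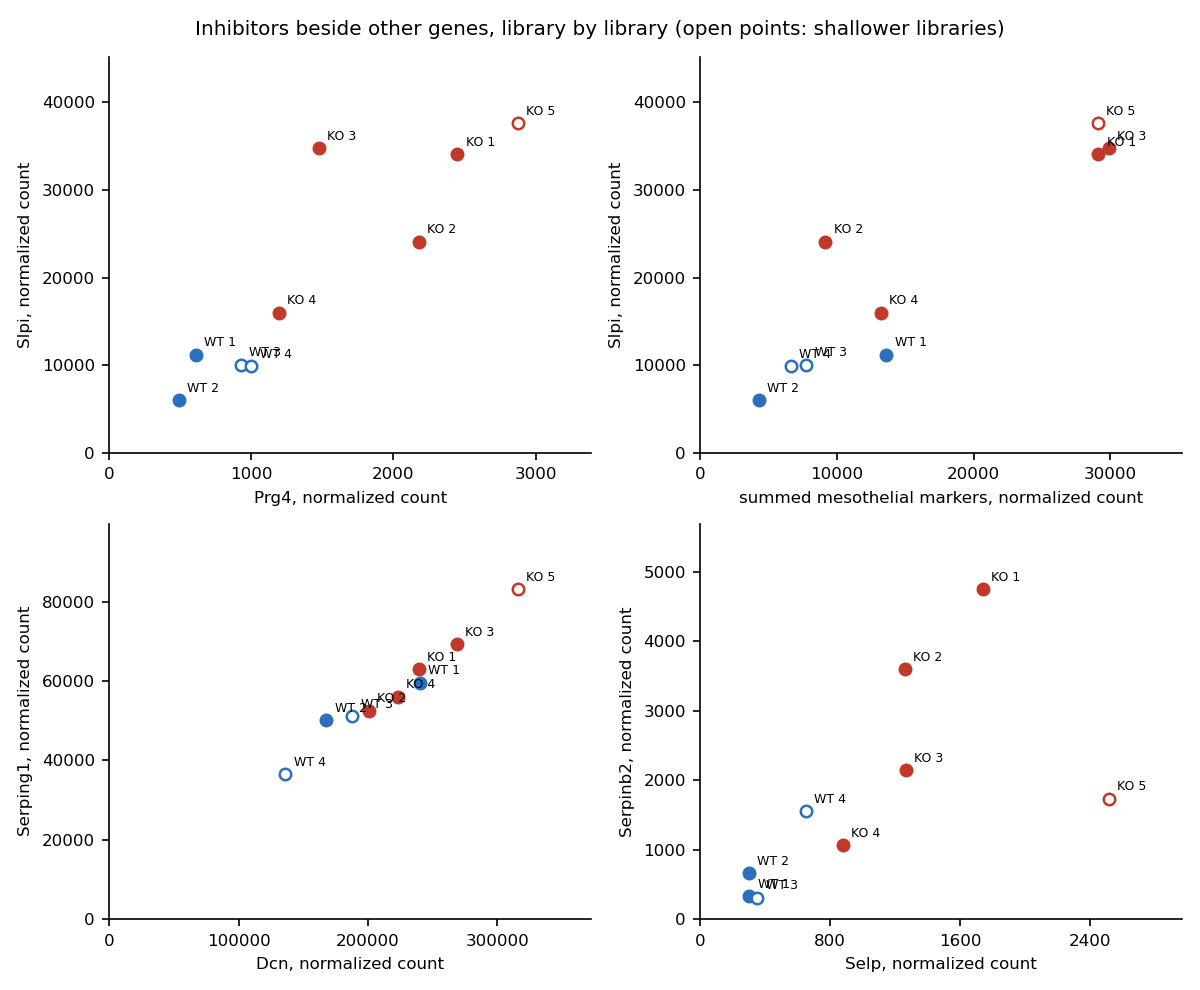
Normalized counts of an inhibitor (vertical) against another gene or marker sum (horizontal) in the same library, red for KO and blue for WT, open for shallower libraries. Slpi is set against Prg4 and the summed mesothelial markers, Serping1 against Dcn and Serpinb2 against Selp, and the Serping1 points lie near a line through the origin with a ratio of 0.248 to 0.299.

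Markers of mesothelial cells and of large peritoneal macrophages were mostly higher in KO. The summed level of 11 mesothelial markers was 29145, 9139, 29881, 13204 and 29106 in KO, and 13622, 4302, 7750 and 6625 in WT. KO replicates 1, 3 and 5 were the highest for both the mesothelial sum and Slpi, and WT replicate 2 was the lowest for both. The groups overlapped in the mesothelial sum, and KO replicate 2 was lower than replicate 4 in it but higher in Slpi. All 11 had a log2 difference above 0 (median 1.38). In limma over all genes 0 passed (0 by limma-voom), and 8 had an unadjusted p under 0.05, as did 9.14% of all genes. None of the 11 was at the floor in all libraries of a group. Gpm6a and Upk1b, those of highest level, had 6201 ± 3376 and 3586 ± 1583 in KO, and 2292 ± 1345 and 1070 ± 873 in WT. The 10 markers of large peritoneal macrophages summed to 32180 to 36495 in KO and 24686 to 31684 in WT, with 9 of 10 above 0. In limma 1 of the 10, Selp, was called higher (adjusted p = 0.02, where 0.181% of all genes were called higher), and 0 by limma-voom (Selp adjusted p = 0.11). An unadjusted p under 0.05 in limma was reached by 5 of the 10. Gata6, of the same list, had 407 ± 227 in KO and 291 ± 149 in WT, with overlapping ranges (limma adjusted p = 0.844). Cd93 and Alox15 led them, at 22574 ± 1770 and 3218 ± 1387 in KO and 22218 ± 2463 and 950 ± 727 in WT. Cd93, the largest part of the sum, was thus near level between the groups (log2 difference 0.03). The part of these cells in the levels of Slpi and Serpinb2 was not tested. Which cells the Selp reads came from was not tested either, and 10 of 10 endothelial markers, given next, also lay above 0.

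Neutrophil markers were low in level. The 9 measured summed to 2771 to 4720 in KO and 2264 to 3272 in WT, most of it Csf3r, which macrophages also express (2646 ± 585 and 2032 ± 298). In 8 of 9 the log2 difference was above 0, and 1, Ltf, was at the floor in all WT libraries. In limma 0 passed (0 by limma-voom), and 1, Mmp9, had an unadjusted p under 0.05. Mmp9 had 433 ± 118 in KO and 112 ± 15 in WT, with all KO libraries above all WT libraries (limma adjusted p = 0.0892). Of the 10 endothelial markers 0 passed in limma (0 by limma-voom), and 5 had an unadjusted p under 0.05, as did 9.14% of all genes. All 10 had log2 differences above 0. They summed to 6344, 5257, 6597, 4647 and 8638 in KO, and to 2743, 4379, 2874 and 1986 in WT. As for Slpi, these groups did not overlap and the KO libraries ranked 5, 3, 1, 2 and 4 from the highest, but WT replicate 2, the lowest for Slpi, was the highest of WT. Fibroblast markers, among which Dcn is the largest, had 9 of 10 above 0 with a median log2 difference of 0.26. In limma 0 of them passed, and 3 had an unadjusted p under 0.05. The order of the KO libraries by the fibroblast sum began, as for Serping1, with replicates 5 and 3. Epithelial markers, 4 of them measured, summed to 536 to 1260 in KO and 1727 to 2378 in WT. That lower sum came from Ehf, an epithelial transcription factor, at 598 ± 197 in KO and 1801 ± 401 in WT. Ehf was called lower in limma (adjusted p = 0.0172), as were 0.127% of all genes. The other 3 had log2 differences above 0 (list median 0.83). Adipocyte markers summed to 497 to 1216 in KO and 904 to 1164 in WT, with 5 of 8 above 0. The part of these cells in the levels of the members was not tested.

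Most of the other inhibitor genes did not pass the test. Outside the 7 members, 70 of 147 listed inhibitor genes were in the table (the other 77 were not analysed here), and 1 rose and 0 fell in limma (adjusted p of 0.05), or 1.43%, where 0.309% of all genes were called. At an unadjusted p under 0.05 there were 8 higher and 2 lower, or 10 of 70, where 9.14% of all genes reached it. The ranges of KO and WT did not overlap in 3 of 70 (4.29%; 3.15% of all genes), all 3 higher in KO. The median log2 difference was 0.06, with 40 above 0 and 30 below, where that of all genes was 0.02.

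**Figure D4:**
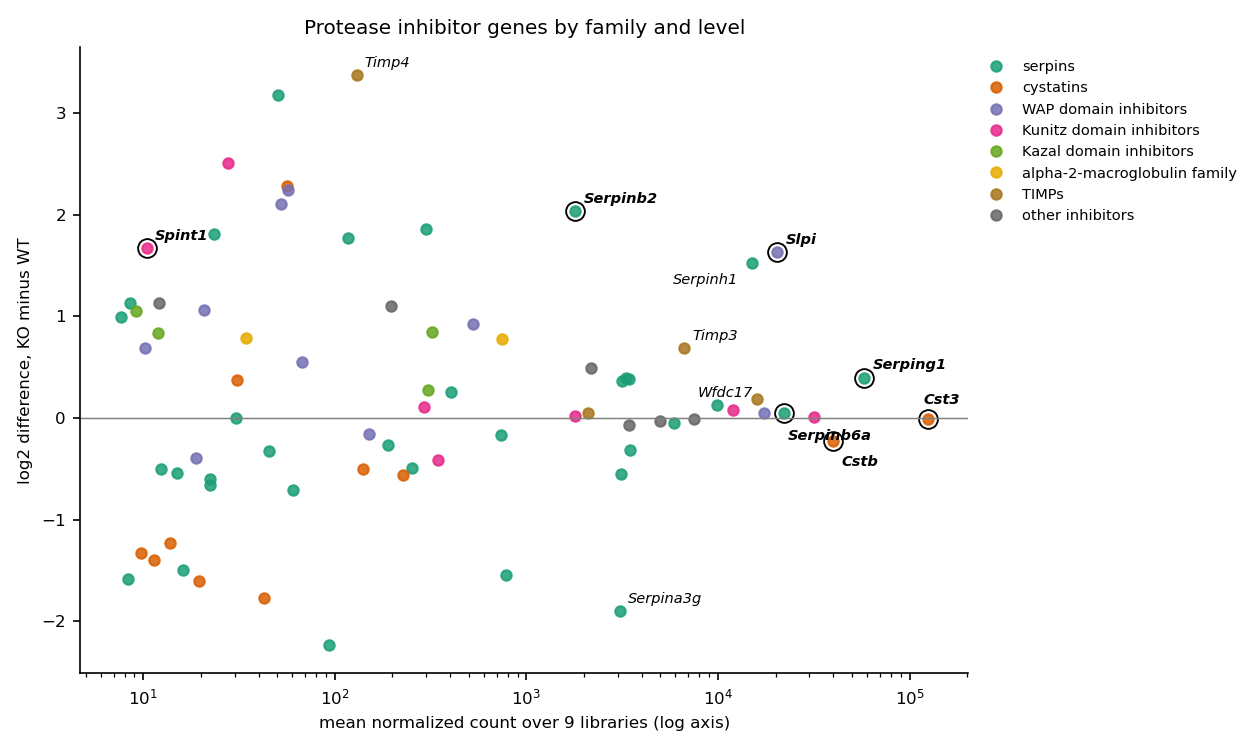
Log2 difference (KO minus WT) of 77 inhibitor genes against their mean normalized count on a log axis, coloured by family, with the 7 members ringed. Among the genes at right, Slpi and Serpinh1 lie at 1.63 and 1.52, Serping1 at 0.39 and Cst3 at -0.01, and the wide scatter at left belongs to genes of low count.

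The gene that rose was Serpinh1, a serpin by fold that inhibits no protease and serves as the collagen chaperone of the endoplasmic reticulum. It counted 15431, 13952, 22854, 20796 and 33853 in KO libraries against 7202, 6317, 8275 and 6677 in those of WT (log2 difference 1.52, SE 0.20; limma adjusted p = 0.00233, 0.0589 to 0.159 in the fits that lost it). The other 29 serpins outside the members did not pass. None of the 9 further cystatins passed (0 by limma-voom, and 0 at an unadjusted p of 0.05), and only 2 of them averaged at least 100 normalized counts. Kng2, the highest, had 198 ± 113 in KO and 264 ± 60 in WT.

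In the remaining families no gene passed, in limma or in limma-voom. Of the 9 WAP genes besides Slpi, 7 lay above 0, and 0 had an unadjusted p under 0.05. Wfdc1, after Wfdc17 the highest, had 666 ± 282 in KO and 357 ± 170 in WT (log2 difference 0.92; limma adjusted p = 0.56). The 6 Kunitz genes besides Spint1 had 0 at an unadjusted p under 0.05. Aplp2, App and Tfpi, the highest, had log2 differences of 0.01, 0.08 and 0.02. Of the 4 Kazal genes 0 reached an unadjusted p of 0.05 (Spink2 0.85 and Reck 0.28, log2 differences). Both genes measured of the alpha-2-macroglobulin family lay above 0, with 1, Cd109, at an unadjusted p under 0.05 (896 ± 191 and 566 ± 276; limma adjusted p = 0.491). The 4 TIMPs, which inhibit matrix metalloproteinases, lay above 0, with 2 at an unadjusted p under 0.05. Timp2, Timp3 and Timp1 had log2 differences of 0.18, 0.68 and 0.05, and Timp3 reached an adjusted p of 0.0945. Of 6 inhibitors of other kinds 1 had an unadjusted p under 0.05. Cast (calpastatin), Pebp1 and Lxn (latexin), the highest, had log2 differences of -0.01, -0.03 and -0.06.

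All 77 inhibitor genes together summed to 451114 ± 29766 normalized counts in KO and 402554 ± 25267 in WT. The ranges, 419531 to 499811 and 371820 to 430640, overlapped. Without Slpi the sums were 421796 ± 24918 and 393272 ± 25452, and their ranges, 395453 to 462152 and 361934 to 419440, overlapped as well. These sums weight long and abundant transcripts most, and Cst3 alone made up 24.5% to 30.4% of them in KO and 29.1% to 33.2% in WT.

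The listed proteases and receptors mostly did not pass the test, apart from 2 proteases of mast cells, which were lower in KO. The list also holds receptors and the growth factor gene Hgf, so shares of it are not shares of the members' targets. Of 41 proteases and receptors listed, 35 were in the table, and 0 rose and 2 fell in limma (5.71%, where 0.309% of all genes were called). The 2 were Cma1 (chymase) and Tpsb2 (a tryptase), both made by mast cells, and the list was drawn up with earlier results on both in view. Cma1 counted 565 ± 111 in KO libraries against 1819 ± 564 in those of WT (log2 difference -1.64, SE 0.27; limma adjusted p = 0.0137). Tpsb2 had 830 ± 294 and 2969 ± 904 (log2 difference -1.87, SE 0.28; limma adjusted p = 0.00921). In each fit that left out 1 library, at most 1 of these 2 calls was kept. Mast cell markers summed to 1916 to 3614 in KO and 6209 to 10911 in WT, with 8 of 9 below 0 and Fcer1a at the floor in all KO libraries. In limma 4 of the 9 were called lower (4 by limma-voom), where 0.127% of all genes were called lower. Besides Cma1 and Tpsb2 these were Cpa3 and Fcer1a (limma adjusted p = 0.0223 for each). The mast cell list holds Cma1, Tpsb2 and Mcpt4 themselves, and its other 6 genes summed to 823 to 1576 in KO and 2457 to 4378 in WT, with 5 of 6 below 0. The part of mast cells in the calls of Cma1 and Tpsb2 was not tested.

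Neutrophil elastase and cathepsin G, the proteases for which Slpi is best known, were close to the floor. Elane reached 21.4 normalized counts in 1 KO and 38.0 in 1 WT library and at most 4.65 in the others. Ctsg reached 43.5 in KO and 43.7 in WT, in 1 library each, and at most 9.30 in the others. The cathepsins and legumain, most of them targets of the cystatins, were mostly abundant, and 0 of 12 passed in limma (0 by limma-voom, and 1 at an unadjusted p of 0.05). Ctsb counted 732370 ± 42180 in KO libraries against 776950 ± 74750 in those of WT, and Lgmn (legumain) 145090 ± 10050 and 154570 ± 14310. Ctss, the cathepsin that trims the invariant chain, had 218340 ± 16740 and 276900 ± 35230, with all KO libraries below all WT libraries (log2 difference -0.34; limma adjusted p = 0.13). Their median log2 difference was -0.10, close to that of all genes at 0.02.

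**Figure D5:**
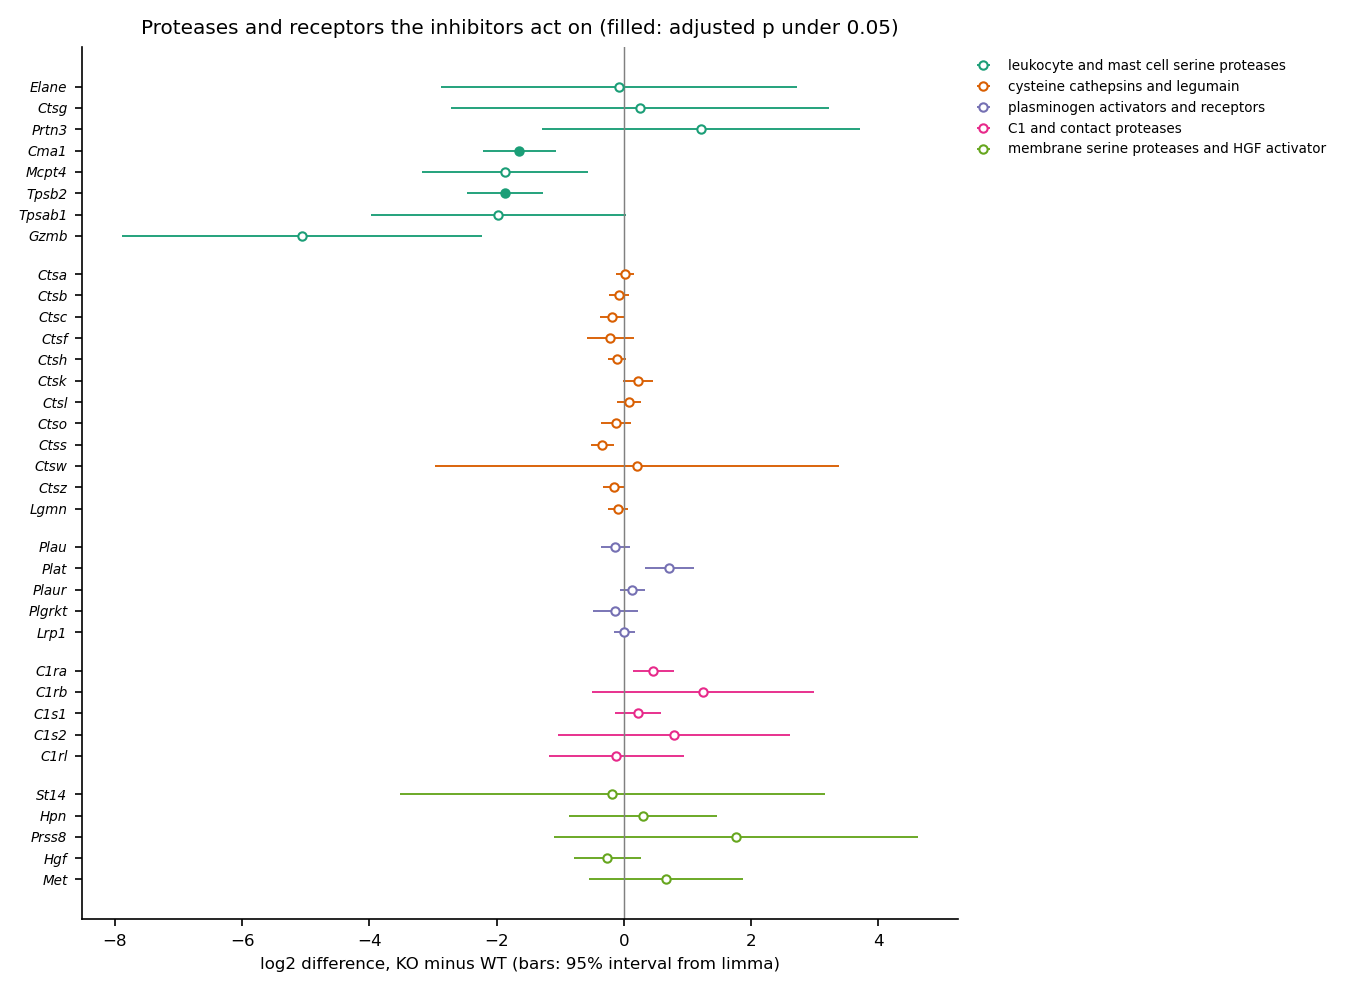
Log2 difference (KO minus WT) of 35 listed proteases, receptors and related genes, not all of them targets of the inhibitors. Genes are grouped by list, with 95% intervals from limma and filled points where the adjusted p was under 0.05. Cma1 and Tpsb2 are filled, at -1.64 and -1.87, and most cathepsins have short intervals near 0.

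The plasminogen system, on which Serpinb2 acts, showed no called gene among 5 (0 by limma-voom, and 1 at an unadjusted p of 0.05). Urokinase (Plau) counted 10408 ± 485 in KO libraries against 11546 ± 2167 in those of WT, its receptor Plaur 25000 ± 2976 and 22762 ± 1545, and the clearance receptor Lrp1 27655 ± 2029 and 27506 ± 1663. The difference of Lrp1 was smaller than the SD of either group. That of Plau was smaller than its WT SD but not its KO SD, and that of Plaur smaller than its KO SD but not its WT SD. The gene at an unadjusted p under 0.05 was Plat, the tissue plasminogen activator, with overlapping ranges (log2 difference 0.71; limma adjusted p = 0.134). Of the proteases on which Serping1 acts, 5 were measured and 0 passed (0 by limma-voom, and 1 at an unadjusted p of 0.05). C1s1 had 16117 ± 3481 in KO and 13889 ± 3585 in WT, C1ra 8428 ± 1531 and 6145 ± 1287, and C1rl 293 ± 101 and 342 ± 192. The log2 difference of C1ra was 0.46, near the 0.39 of Serping1 (limma adjusted p = 0.288). Of the 5 genes of membrane serine proteases and the HGF pathway, 0 passed (0 by limma-voom, and 0 at an unadjusted p of 0.05), with Hgf at 1193 ± 262 and 1473 ± 514, its receptor Met at 310 ± 154 and 185 ± 96, and Hpn at 153 ± 37 and 126 ± 40.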

How the data were processed

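RNA was sequenced from sorted adipose tissue macrophages in 9 libraries (5 KO, 4 WT), grouped by the genotype in their titles. Per the labels' protocols, oligo-dT beads captured the mRNA, and second strands carried dUTP so that libraries kept the strand. The submitters' processing notes list mm10 as the build and DESeq2, Partek, HISAT and CASAVA 1.8.2 as tools, without their roles. The authors' annotation and way of counting were not stated there. The authors deposited a normalized signal for each gene, which the values themselves show to be read counts over 1 factor per library: within a tolerance of 0.1, low values above 1 are whole multiples of 1 step, and values under 1 stand at 1. The lowest mean over libraries was 5.09, so low genes had been left out. Because of the floor the planned edgeR test was not run, and limma-voom on reads worked out from the steps took its place, an alternative chosen after seeing the data.

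Groups were compared by limma 3.58.1 (R 4.3.3) with a mean-variance trend, after adding 1 to each value and taking log2. Genotype was the model's sole term, and p-values were adjusted by Benjamini-Hochberg over 14905 genes, with a threshold of 0.05. The filter, a value of at least 1 in 4 libraries, removed 0 genes. Replicate SDs are on the deposited scale. The members and gene lists were chosen with earlier results of these data known. Named genes are the members, Nucb2, called genes of the inhibitor and protease lists, the 3 of highest mean in each of those lists and 2 in each of 4 marker lists, and the genes nearest in profile (5 for Slpi, 2 for other members), of which some are not reported here. Serpinb10, Elane, Ctsg, Fcer1a, Cpa3, Lyz2, Fcgr1, Adgre1, Itgam, Ltf, Ehf, Gata6, Mmp9 and those of the closing observations were picked after their values were seen. Loci and lengths come from GENCODE M21 (GRCm38, the same assembly as mm10), and promoter windows from RefSeq. The code was tested on simulated data. Python 3.11.15, SciPy 1.17.1 and matplotlib 3.10.9 were used.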

Additional observations from a re-analysis of the deposited data

Results flagged for a closer look

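In 4 cases 1 library stood apart from the others of its group by the gap between it and its nearest neighbour, set against the range of the group (Dixon's criterion at the 95% level). Among 93 groups of libraries looked at, chance alone flags about 1 in 20. Spint1 was at 73.7 normalized counts in KO replicate 2, where the other KO libraries had at most 12.7. Spink8 was at 21.9 in WT replicate 1 and A2m at 99.6 in WT replicate 2, with the other WT libraries at the floor. Lxn was at 2979 in WT replicate 1, where the other WT libraries reached up to 3724.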

How the results depend on the processing

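Each value was computed again under 19 alternatives. The log2 differences of the 7 members moved by less than 1 SD between libraries in all 19. Slpi stayed between 1.43 and 1.83, Serpinb2 between 1.75 and 2.52, Cstb between -0.27 and -0.19, and Serping1 between 0.13 and 0.49, while Cst3 and Serpinb6a, close to 0, kept their sign in 15 and 16 of 19. Leaving out 1 library each, the count over all genes was 5 to 38 (46 with all libraries), that of inhibitors outside the members called higher 0 to 1 (1), and that of proteases called lower 0 to 1 (2). The call of Serpinh1 was lost without KO replicate 3 or 4 and without WT replicate 2 or 4 (limma adjusted p = 0.0804, 0.0665, 0.101 and 0.0815), with log2 differences of 1.48, 1.51, 1.47 and 1.49. In the 6 deeper libraries alone, 0 genes were called (1039 at an unadjusted p under 0.05), so that the inhibitors called were 0 and the proteases 0, and Nucb2 differed by -1.61 (limma adjusted p = 0.116). With the replicate number as a replicate block, which drops KO replicate 5, 0 genes were called (1104 at an unadjusted p under 0.05), with 0 inhibitors and 0 proteases, and Nucb2 differed by -1.58 (limma adjusted p = 0.0515). No sign of pairing by replicate number was seen: deviations from the group means of same-numbered libraries correlated by -0.021 to 0.017 across genes. For KO replicates 3 and 4, though not 1 and 2, the same-numbered WT library correlated best. Values near 0 cannot show that the libraries were not paired. Limma-voom called 32 genes, 12 of them higher (27 of 46 in limma on log values). The planned edgeR test was not run. At the depth of these libraries counting error is small for all members except Spint1.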

Other observations

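A few more values of inhibitor and protease genes are given here, picked after they were seen. Timp3 and Timp4, inhibitors of matrix metalloproteinases, were higher in every KO library than in any WT library without passing in limma. The normalized count of Timp3 was 7992 ± 1974 in KO libraries against 4897 ± 698 in those of WT (± SD over 5 KO and 4 WT libraries; adjusted p = 0.0945), and Timp4 had 389, 111, 205, 141 and 215 in KO against 1.83, 29.5, 27.8 and 49.1 in WT (adjusted p = 0.155). Plat, the tissue plasminogen activator, had 5343 ± 1314 and 3213 ± 547 (limma adjusted p = 0.134).

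Serpina3g, a serpin of leukocytes, varied widely among WT libraries. It had 1122, 1730, 14694 and 5207 normalized counts in WT replicates 1 to 4, and 504 to 1432 in KO. Serpina3f, a close copy of the same family, was also highest in WT replicates 3 and 4, at 3536 and 1715, and at most 397 in the other libraries. How reads were divided between such copies is not given in the labels, and both high libraries are among the 3 shallower ones. The log2 difference of Serpina3g was -0.56 within the deeper and -3.27 within the shallower libraries (limma adjusted p = 0.22 over all 9).

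Gzmb, the granzyme B gene, had 695, 596, 299 and 210 normalized counts in WT, and 218 and 82.7 in KO replicates 3 and 5 with at most 2.54 in the other KO libraries (limma adjusted p = 0.155).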
